A study of Mus musculus with 20 samples.

Results

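The 4 libraries described here, of 20 in the series, came from presomitic mesoderm colonies (iPSM) grown from mouse embryonic stem cells in which doxycycline (dox) turns on the circadian transcription factors Clock and Bmal1. They were chosen by their labels: clones 12 and 20 of the tetO-Clock/Bmal1 line, each with 1000 ng/mL dox for 2 hours and each without it. All iPSM lines descend from the mouse embryonic stem cell line E14TG2a and contain luciferase under control of the Hes7 promoter, so every control has that reporter too. The comparison lines were 2 clones (7 and 19) in which dox turns on Clock with Bmal1DN, labelled tetO-Clock/Bmal1DN, and 1 control line without an inducible gene, all given the same dose and time. A clone is a single cell line, and 1 library was made of each clone and condition, so n = 2 clones for each inducible genotype and 1 for the control line. The p-values come from a joint fit of both inducible genotypes, so they measure a spread pooled over the 2 Clock/Bmal1 pairs and the 2 Clock/Bmal1DN pairs. The study asked how CLOCK/BMAL1 acts on the segmentation clock, and the comparison here is of dox with no dox within each clone.

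CLOCK and BMAL1 (the mouse gene symbol of Bmal1 is Arntl) bind DNA as a pair at E-box sequences, of which CACGTG is the best known form. They switch on their own repressors, the Period and Cryptochrome genes, and the nuclear receptors Nr1d1 and Nr1d2, which closes the circadian feedback loop. The presomitic mesoderm of the embryo runs another oscillator, the segmentation clock, in which the repressor Hes7 and the Notch modifier Lfng rise and fall as each somite forms. In the embryo Wnt and FGF signals are high at the tail end of this tissue, where Msgn1, Tbx6 and Sp5 are active.

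Total counts over gene bodies were 41.3 to 47.8 M per Clock/Bmal1 library and 38.2 to 47.7 M in the other iPSM libraries. The labelled tissue was checked with 8 presomitic mesoderm markers: all 8 were detected, among them T at 508 and 558 CPM (the count scaled to library size, here with edgeR's TMM factors) in untreated clones 12 and 20. The 2 clones were not alike before dox: untreated Tbx6 was 21.6 CPM in clone 12 and 55.0 in clone 20, Dll1 was 51.0 and 159, and Hes7 was 7.66 and 21.5. Genes of a pluripotency list were also detected, with Pou5f1 at 179 and 203 CPM, Lin28a at 464 and 604 and Nanog at 54.4 and 37.0 in untreated clones 12 and 20; expression in remaining stem cells and in the mesoderm cells themselves cannot be told apart. Among markers of other tissues Pax6 (neural, 0.0608 and 0.335 CPM), Sox17 (endoderm, 0.669 and 0.789) and Kdr (endothelial, 0.973 and 1.1) were low, but the lists they belong to held higher members: Nes was at 131 and 184 CPM in the neural list, Krt8 at 285 and 466 in the endoderm list and Lmo2 at 49.6 and 129 in the endothelial and blood list. The untreated control library stood apart, with counts in 69.4% of the table's features against 50.2% to 54.0% in the other 9 iPSM libraries, and it entered the fit only in 1 alternative, that of all 10 iPSM libraries.

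Dox raised many genes and lowered few. Of 21008 genes tested by edgeR's quasi-likelihood test with the clone as a block, 316 rose (1.5% of those tested) and 13 fell (0.0619%) at a Benjamini-Hochberg adjusted p below 0.05. All 329 moved the same way in both clones. For 315 of the 316 that rose, both dox libraries lay above both untreated libraries, which was so for 12.3% of all tested genes. For 12 of the 13 that fell, both dox libraries lay below, as for 10.9% of all. The median rise was 4.18-fold, also with the 8 genes that had no untreated count at their lower bounds: 274 genes rose at least 2-fold on the fitted scale, 165 by a log2 fold change of at least 2 and 59 of at least 4. The falls were smaller, from 1.61-fold to 2.57-fold, and 6 of 13 exceeded 2-fold.

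**Figure D1:**
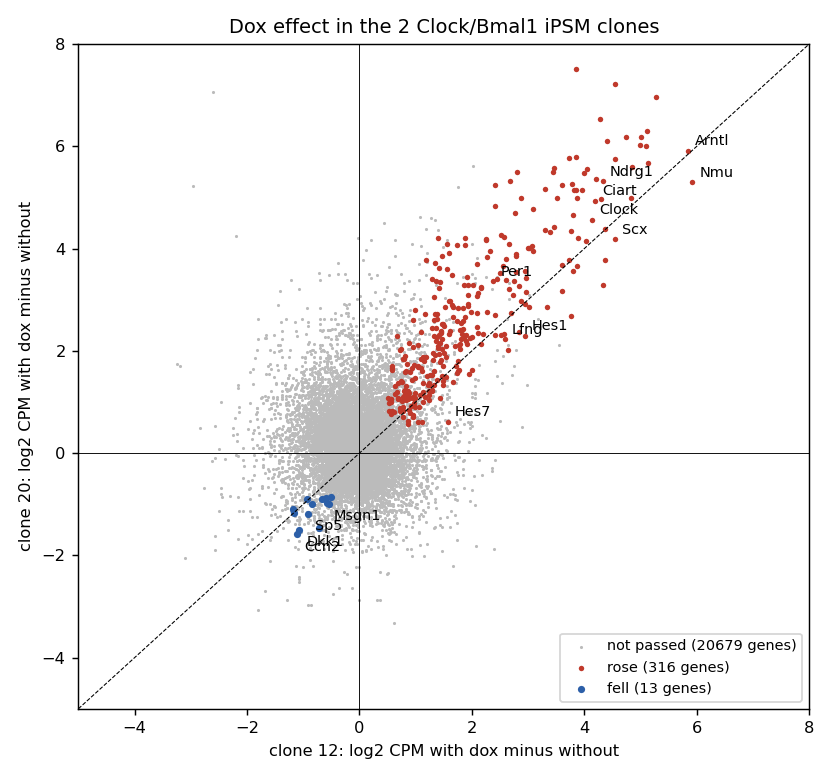
Log2 difference in CPM (prior count 2) between dox and no dox for each of 21008 tested genes, clone 12 on the x axis and clone 20 on the y axis; red points are the 316 genes that rose, blue points the 13 that fell, grey points did not pass, and the dashed line marks equal change. The red points reach beyond 5 in both clones, whereas the blue points lie near -1.

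The genes that rose were quieter before dox than most. Their median untreated level was 2.59 CPM, against 8.39 CPM for all tested genes; 108 were under 1 CPM and 93 at 10 CPM or more. The 13 genes that fell had a median of 19.5 CPM, and 11 of them were at 10 CPM or more. The filter on low counts let genes enter the test through their dox libraries alone. A gene with almost no untreated reads could not pass as lower. These levels therefore depend in part on the filter and the test. Protein-coding genes made up 286 of the 316 (90.5%, against 73.0% of all tested) and long noncoding RNAs 26, by the GENCODE vM21 annotation. The protein-coding genes that fell were short, with a median gene length of 3.80 kb, against 19.1 kb for those that rose and 23.7 kb for all tested.

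Clone 20 usually responded more. The rise was larger in clone 20 for 264 of the 316 genes, and the fall was larger there for 11 of the 13. Changes were wider in clone 20 over genes in general too. Among tested genes of at least 1 CPM untreated, the log2 changes had an SD of 0.537 there, against 0.368 in clone 12. Clone 20 also had more Clock and Arntl RNA under dox. Gene length moved with dox in opposite ways in the 2 clones: among genes of at least 1 CPM untreated, the median log2 change of the longest 3039 was -0.18 in clone 12 and 0.30 in clone 20, and that of the shortest 3040 was 0.11 and -0.28. In the Clock/Bmal1DN clones these medians lay between -0.03 and 0.01. In the control line, with no inducible gene, 1 library a condition and the untreated library that stood apart, they were -0.41 for the longest and 0.35 for the shortest, so the trend was not confined to the Clock/Bmal1 clones. The part of this length trend in the larger values of clone 20 was not tested. With the length trend of each library taken out, a setting added after the data were seen, 472 genes rose, 315 of the 316 among them, and 36 fell, including all 13.

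The induced genes themselves come first. Clock, whose protein is the histone-acetylating partner of BMAL1, stood at 98.8 CPM in untreated clone 12 and 1748 with dox, and at 104 and 2459 CPM in clone 20. Its log2 fold change was 4.36 ± 0.18 (SE), 20.5-fold, adjusted p = 3.8e-06. Arntl went from 56.2 to 3212 CPM in clone 12 and from 77.5 to 4682 CPM in clone 20, a log2 fold change of 5.88 ± 0.62, 58.8-fold, adjusted p = 0.00071. Its log2 changes were 5.84 and 5.92 in clones 12 and 20, and 4.39 and 1.21 in Clock/Bmal1DN clones 7 and 19. Transgene and endogenous reads fall on the same gene bodies and were not separated, so these values check the labels and say nothing of the endogenous genes. In the control line Clock was 112 CPM without dox and 108 with it, and Arntl 21.2 and 20.1.

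Most known targets of the pair rose, although not every repressor of the loop passed. Of 19 tested members of a list of known circadian E-box targets, 12 rose and none fell, and the list's median log2 fold change was 1.48, against -0.02 over all genes. Per1, which with its relatives represses CLOCK/BMAL1, rose from 7.68 to 40.0 CPM in clone 12 and from 5.02 to 52.0 CPM in clone 20. Per2 rose from 3.40 to 14.7 and from 1.70 to 22.7 CPM. For both genes the dox libraries lay far above the untreated ones: the log2 fold changes were 2.87 ± 0.24 (adjusted p = 0.000155) and 2.88 ± 0.34 (adjusted p = 0.00126).

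Cry1, a partner of the Period proteins, rose less, from 30.7 to 59.0 CPM and from 28.8 to 77.7 CPM, a log2 fold change of 1.19 ± 0.16 (adjusted p = 0.00367). Per3 and Cry2 did not pass. Per3 was 32.8 and 41.1 CPM in clone 12 and 23.3 and 40.8 in clone 20 (log2 fold change 0.56 ± 0.16, adjusted p = 0.193). Cry2 was 22.1 and 29.5 CPM in clone 12 and 22.8 and 58.9 in clone 20 (0.90 ± 0.21, adjusted p = 0.0850). Both genes were higher with dox in each clone, and both passed once the length trend was taken out (adjusted p = 0.0373 and 0.0249).

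The second arm of the loop, the nuclear receptors that repress Arntl, changed by very different amounts. Nr1d1 rose from 2.15 to 32.0 CPM in clone 12 and from 1.29 to 42.5 CPM in clone 20, 21.6-fold on the fitted scale (log2 fold change 4.43 ± 0.31, adjusted p = 5.86e-05). Nr1d2 started higher, at 87.8 and 58.6 CPM, and reached 190 and 179 CPM, a 2.57-fold rise (1.36 ± 0.16, adjusted p = 0.00134). Ciart, a further repressor of CLOCK/BMAL1, went from 3.22 to 59.6 CPM and from 2.77 to 86.0 CPM, and its log2 fold change of 4.57 ± 0.22 had an adjusted p of 8.19e-06.

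The bHLH repressors that compete for E-boxes also rose. Bhlhe40 went from 12.8 to 69.8 CPM in clone 12 and from 6.38 to 67.8 CPM in clone 20, a log2 fold change of 2.92 ± 0.25. Its relative Bhlhe41 went from 0.527 to 13.4 CPM and from 0.382 to 23.0 CPM, 5.24 ± 0.33. For both genes each dox library lay above both untreated ones.

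The 3 PAR bZIP activators, which carry circadian output, formed a graded set. Dbp rose from 4.90 to 35.5 CPM in clone 12 and from 5.47 to 53.2 CPM in clone 20 (log2 fold change 3.07 ± 0.20). Hlf was nearly silent without dox, at 0.709 and 0.191 CPM, and reached 14.7 and 21.8 CPM (5.31 ± 0.45). Tef, already at 59.6 and 42.9 CPM, reached 132 and 151 CPM (1.48 ± 0.18). Per length of gene body, in the deposited RPKM, the dox level of Dbp (6.86 in clone 12 and 10.04 in clone 20) lay above those of Per1 (3.59 and 4.57), Nr1d1 (4.28 and 5.55) and Cry1 (1.09 and 1.41) in each clone. It lay below those of Ciart (15.8 and 22.3) and Bhlhe40 (10.96 and 10.41). RPKM here divides by the whole gene body, introns included, so it is no measure of mature RNA across genes of different length. In a list of 21 other clock components the 2 that rose were Clock and Arntl, and the median was 0.02.

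**Figure D2:**
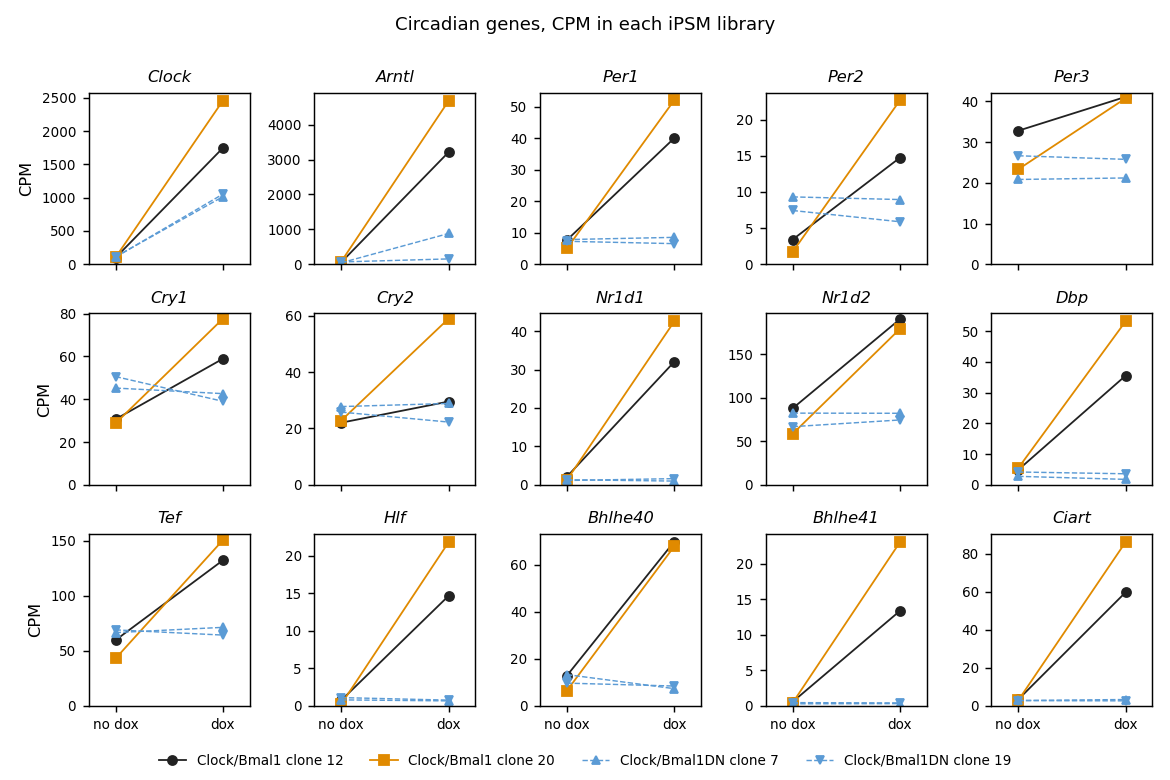
CPM of 15 circadian genes in 8 iPSM libraries, 1 panel per gene with its own y axis from 0; each line joins the untreated and the dox library of 1 clone, Clock/Bmal1 clones solid and Clock/Bmal1DN clones dashed. In the Clock/Bmal1 clones 13 of the 15 genes rose. In the Clock/Bmal1DN clones no gene but Clock and Arntl rises clearly on these axes, which reach to the Clock/Bmal1 dox values. Bhlhe40 went from 13.2 to 7.22 CPM in Clock/Bmal1DN clone 7 and from 9.57 to 8.33 CPM in clone 19.

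The bases just upstream of 8 genes that rose are shown because CACGTG is the sequence that the induced pair binds; 7 come from genes with a firm rise, picked after the motif search, mostly because the stretch holds CACGTG, and Hes7 is the segmentation gene of the reporter. They do not represent the genes that rose: Dbp, Nr4a3 and Kcnj5, with rises as firm, held no CACGTG in the window searched. Sequences are from RefSeq (GRCm38.p6, the assembly of mm10), 5′ to 3′ on the gene's strand, and end where the deposited gene body begins, except that of Nr1d1, which stops short of it; capitals mark CACGTG, which reads the same on both strands, and also a related motif, CACGTT, with its form on the other strand, which is AACGTG. Per1 spans chr11:69098699-69098947 (+), Ciart chr3:95882232-95882478 (-), Bhlhe41 chr6:145865559-145865670 (-), Lfng chr5:140607091-140607319 (+), Dusp2 chr2:127335909-127336158 (+), Nmu chr5:76363789-76364027 (-), Nr1d1 chr11:98775378-98775627 (-) and Hes7 chr11:69120203-69120403 (+).
Per1: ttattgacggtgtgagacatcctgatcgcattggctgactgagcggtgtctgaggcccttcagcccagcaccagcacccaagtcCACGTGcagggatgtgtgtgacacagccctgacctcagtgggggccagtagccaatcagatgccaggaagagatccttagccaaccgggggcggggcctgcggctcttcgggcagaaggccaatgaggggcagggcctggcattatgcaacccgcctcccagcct
Ciart: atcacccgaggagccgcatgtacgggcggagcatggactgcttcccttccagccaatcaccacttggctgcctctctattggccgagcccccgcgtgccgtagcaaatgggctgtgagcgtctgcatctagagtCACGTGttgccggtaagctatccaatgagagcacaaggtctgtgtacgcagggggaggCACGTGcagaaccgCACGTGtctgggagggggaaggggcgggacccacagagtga
Bhlhe41: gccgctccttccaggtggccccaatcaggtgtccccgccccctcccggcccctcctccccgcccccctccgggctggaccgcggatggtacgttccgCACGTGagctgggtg
Lfng: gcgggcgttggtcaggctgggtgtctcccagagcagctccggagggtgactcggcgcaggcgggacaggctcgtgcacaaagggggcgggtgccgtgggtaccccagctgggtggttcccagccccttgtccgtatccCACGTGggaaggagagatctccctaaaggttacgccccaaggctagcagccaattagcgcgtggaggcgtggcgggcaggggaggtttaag
Dusp2: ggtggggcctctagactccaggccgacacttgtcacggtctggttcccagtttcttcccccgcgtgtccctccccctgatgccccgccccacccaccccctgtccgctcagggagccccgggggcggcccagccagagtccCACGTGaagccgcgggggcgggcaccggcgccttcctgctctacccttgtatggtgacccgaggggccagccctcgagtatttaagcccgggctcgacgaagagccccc
Nmu: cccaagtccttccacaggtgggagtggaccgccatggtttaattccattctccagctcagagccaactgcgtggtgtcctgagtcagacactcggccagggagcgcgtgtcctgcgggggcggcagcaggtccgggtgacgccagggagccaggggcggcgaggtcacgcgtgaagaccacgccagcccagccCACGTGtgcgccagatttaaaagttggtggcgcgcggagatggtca
Nr1d1: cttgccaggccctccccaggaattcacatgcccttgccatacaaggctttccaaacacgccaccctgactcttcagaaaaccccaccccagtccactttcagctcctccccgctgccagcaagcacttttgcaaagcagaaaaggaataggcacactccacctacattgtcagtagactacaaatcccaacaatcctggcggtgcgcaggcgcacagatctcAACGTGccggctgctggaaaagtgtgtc
Hes7: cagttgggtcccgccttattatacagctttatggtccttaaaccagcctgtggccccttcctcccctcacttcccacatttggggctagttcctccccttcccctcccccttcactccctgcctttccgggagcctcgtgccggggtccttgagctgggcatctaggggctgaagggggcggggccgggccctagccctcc
Ciart held 3 copies of CACGTG, Per1, Bhlhe41, Lfng, Dusp2 and Nmu held 1 each, Nr1d1 held 1 AACGTG, and the Hes7 stretch held neither. Over windows of 300 bases (250 before and 50 after the RefSeq start), 220 of the 316 genes that rose could be matched, and 71 of these (32.3%) held CACGTG, against 10.2% of 12034 matched tested genes. More than 1 copy was found in 11 of the 220 (5.00%), against 1.07% of all. CACGTT in either direction was found in 6.82% and 5.27%. Among 108 matched genes that rose by a log2 fold change of at least 2, 29.6% held CACGTG, and among the 112 that rose less, 34.8%. Of 11 matched genes that fell, 1 held it. A match is a description of the letters and not evidence of binding.

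Segmentation clock and Notch genes rose in part. Of 32 members of a Notch and segmentation list, 6 rose (Hes7, Hes1, Hey1, Lfng, Dll4 and Ripply2), none fell and 26 did not pass, with a median log2 fold change of 0.08. Hes7, the repressor at the core of the segmentation clock, rose from 7.66 to 22.8 CPM in clone 12 and from 21.5 to 32.9 CPM in clone 20. Both dox libraries lay above both untreated ones, though clone 12 with dox only just exceeded untreated clone 20, and the log2 fold change was 1.08 ± 0.22 (2.12-fold, adjusted p = 0.0395). The call rests on the pairing by clone: without the replicate block the adjusted p was 0.755. It also did not pass when genes under a mean of 1 CPM were left out (adjusted p = 0.0715). Whether the reporter's RNA holds sequence counted as Hes7 is not given in the sources used here.

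Lfng, the glycosyltransferase that tunes Notch receptors, rose from 7.86 to 47.3 CPM and from 20.8 to 97.6 CPM, a log2 fold change of 2.41 ± 0.18 (adjusted p = 6.97e-05). Hes1, a Notch-responsive repressor related to Hes7, rose from 12.3 to 94.8 CPM and from 20.5 to 101 CPM, 2.62 ± 0.18 (adjusted p = 5.86e-05). In deposited RPKM, with dox, Hes1 stood at 38.2 and 39.6, Hes7 at 6.18 and 8.70, and Lfng at 5.68 and 11.5. For Hes1 the 2 dox libraries nearly coincided although the untreated ones differed.

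Hey1, another Notch target, went from 2.19 to 6.25 CPM and from 5.35 to 15.0 CPM (1.5 ± 0.21), and did not pass without the replicate block (adjusted p = 0.331). Ripply2, which ends the Tbx6 programme at the somite border, went from 0.0203 to 1.3 CPM and from 0.143 to 3.90 CPM (5.02 ± 0.51, adjusted p = 0.000527). Dll4, a Notch ligand outside the naming rule, reached 1.42 and 2.13 CPM from 0.203 and 0.0717 (3.62 ± 0.59).

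The main Notch ligand of this tissue did not change detectably. Dll1 was 51.0 and 53.2 CPM in clone 12 and 159 and 139 CPM in clone 20, a log2 fold change of -0.07 ± 0.17 (adjusted p = 1). Tbx6, a T-box factor needed for paraxial mesoderm, was lower with dox in each clone, 21.6 against 13.8 CPM and 55.0 against 34.3 CPM, but missed the threshold (-0.67 ± 0.16, adjusted p = 0.0967). Mesp2, which marks the next somite boundary, was at or under 0.241 CPM in all 4 libraries and its change was not detectable at this depth (1.1 ± 0.93).

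Hes7 lies near Per1 on chromosome 11. The gene body of Per1 (69098948 to 69109960, plus strand, mm10) ends 10.4 kb before that of Hes7 (69120404 to 69124055, plus strand), which ends 1.84 kb before Aloxe3 (69125896 to 69149115, plus strand), a lipoxygenase gene of the skin barrier. Of 16 tested genes in the neighbourhood, these 3 rose and none fell, with a median log2 fold change of 0.04. Aloxe3 rose from 1.24 to 4.76 CPM in clone 12 and from 0.884 to 10.1 CPM in clone 20 (2.71 ± 0.37, adjusted p = 0.00353). Thus a gene on each side of Hes7 rose more than Hes7 did in the fitted values, although the differences between these genes were not tested.

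Among the 316 genes that rose there were 27 pairs within 50 kb of each other, the 3 pairs among Per1, Hes7 and Aloxe3 included. Whether that is more than other genes of this number would give was not tested. In 5 pairs the gene bodies overlap on the same strand, so their reads cannot be told apart: Ntrk2 with C630044B11Rik, Gm49721 with Rnaset2b, Gm49673 with Rnaset2a, CAAA01066123.1 with Rps6ka4, and Gm20649 with Onecut1. Rnaset2a and Rnaset2b are near-identical copies, and the split of reads between them is uncertain. Hes6, a relative of Hes7, starts 2.76 kb past the end of Per2 on the same strand and rose from 16.9 to 32.8 CPM and from 22.2 to 36.3 CPM (0.83 ± 0.16, adjusted p = 0.0286). Nmu, which encodes the neuropeptide neuromedin U, lies 28.7 kb from Clock on the same strand and rose from 0.122 to 10.01 CPM and from 0.311 to 13.9 CPM (5.83 ± 0.34). Hes6 was named after its values were seen.

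The largest rises were of genes almost silent in this tissue. Ntsr2 (a neurotensin receptor), Bmp3 (a BMP-family ligand) and Nkx1-1 (a homeobox factor) had no count in either untreated library. With dox Ntsr2 reached 1.40 and 2.90 CPM in clones 12 and 20, Bmp3 0.914 and 3.07, and Nkx1-1 1.25 and 2.13. Against 3 counts over the untreated group these were at least 66.6-fold, 62.5-fold and 52.2-fold higher. Nkx1-1 did not pass in DESeq2 (adjusted p = 0.873). Intervals and such bounds cover counting error only.

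Prok2, a secreted protein known as an output of the brain's circadian pacemaker, had 2 untreated counts and reached 1.95 and 6.64 CPM, a count ratio of 202 with a 95% counting interval of 55.6 to 1677. Ratios and exact intervals for others with 1 or 2 untreated counts were 96.8 for Ankrd63 (17.0 to 3864), 75.7 for Ccer2 (20.6 to 631), 53.03 for Cygb, a globin (14.3 to 444), and 48.9 for Cpeb1os1 (13.2 to 410). Their width reflects the handful of untreated reads.

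With a few more untreated reads the fitted values apply. Hrh3, a histamine receptor, went from 0.0608 and 0.0239 CPM to 4.04 and 8.54 CPM (6.99 ± 0.50). Onecut1, a homeobox factor that shares its reads with Gm20649, went from 0.0608 and 0.0478 to 3.37 and 6.71 CPM (6.38 ± 0.46). Kcnj5, a potassium channel subunit, went from 0.263 and 0.167 to 8.16 and 15.5 CPM (5.66 ± 0.38), and Ddn, which encodes dendrin, from 0.142 and 0 to 2.65 and 8.20 CPM (5.89 ± 0.80; adjusted p in DESeq2 0.454). Each of these genes was absent or barely detected without dox in both clones.

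Immediate early genes moved in both directions: of 32 listed, 8 rose and 3 fell, with a median log2 fold change of 0.07. Those that rose were Nr4a3, Fosl1, Gadd45b, Junb, Maff, Klf10, Gadd45g and Atf3; those that fell were Klf6, Ccn1 and Ccn2. Nr4a3, an orphan nuclear receptor, went from 0.223 to 9.12 CPM in clone 12 and from 0.382 to 27.4 CPM in clone 20 (5.80 ± 0.38, adjusted p = 5.1e-05). Junb, an AP-1 subunit, went from 13.2 to 52.6 and from 12.8 to 61.7 CPM (2.13 ± 0.16, adjusted p = 6.72e-05). Gadd45b, a stress-response gene, went from 3.61 to 20.8 and from 7.17 to 35.7 CPM (2.42 ± 0.21), and Klf10, a zinc-finger factor of the TGF-beta response, from 61.9 to 172 and from 39.8 to 164 CPM (1.76 ± 0.17). In the Clock/Bmal1DN clones the median of the immediate early list was -0.21.

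FGF and MAPK genes were likewise split. Of 43, Dusp2, Spry1, Fgfr3 and Dusp4 rose, Dusp5 fell, and the median log2 fold change was -0.10. Dusp2, a phosphatase of ERK and p38 kinases, rose from 3.49 to 27.1 CPM and from 2.65 to 31.8 CPM (3.26 ± 0.22, adjusted p = 5.67e-05). Spry1, a feedback inhibitor of receptor tyrosine kinases, rose from 7.28 to 17.3 and from 8.34 to 21.6 CPM (1.31 ± 0.20). Dusp4 rose from 68.1 to 99.9 and from 85.7 to 146 CPM (0.66 ± 0.14, adjusted p = 0.0467), whereas Dusp5, an ERK-specific phosphatase, fell from 20.0 to 12.6 and from 19.1 to 10.3 CPM (-0.78 ± 0.17, adjusted p = 0.0483). Fgfr3, an FGF receptor, rose from 0.912 to 2.33 and from 1.70 to 6.07 CPM (1.61 ± 0.30). Without the replicate block the adjusted p was 0.254 for Dusp4, 0.109 for Dusp5 and 0.25 for Fgfr3.

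In the Wnt list of 41 genes 2 fell and none rose, with a median log2 fold change of -0.11. Dkk1, a secreted Wnt inhibitor that Wnt itself induces, fell from 13.4 to 6.33 CPM in clone 12 and from 22.3 to 7.83 CPM in clone 20 (-1.30 ± 0.17, adjusted p = 0.00295; 0.0514 without the replicate block). Sp5, a zinc-finger factor induced by Wnt in the tail end of the embryo, fell from 69.8 to 37.0 and from 77.9 to 34.3 CPM (-1.05 ± 0.14, adjusted p = 0.00363). For both genes each dox library was below both untreated ones.

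The presomitic mesoderm identity list of 27 held 2 genes that rose, Hes7 and Lfng, and 3 that fell, Cyp26a1, Sp5 and Msgn1, with a median of -0.32. A total of 17 members were lower in both clones (63.0%, against 20.2% of all tested genes) and 3 higher (11.1%, against 19.1%). In the Clock/Bmal1DN clones the median of the list was also below 0, at -0.13, against -0.001 over all tested genes. Msgn1, a bHLH factor of the early presomitic mesoderm, fell from 21.3 to 14.3 CPM and from 35.9 to 18.2 CPM (-0.78 ± 0.17, adjusted p = 0.0477). Cyp26a1, an enzyme that breaks down retinoic acid at the tail end, fell from 3.45 to 1.52 CPM and from 12.5 to 5.51 CPM (-1.18 ± 0.22, adjusted p = 0.0225). It is the 1 gene that fell without separation of the groups: its dox level in clone 20 lay above its untreated level in clone 12. Without the replicate block neither passed (adjusted p = 0.319 for Msgn1 and 1 for Cyp26a1), and the marker levels of the 2 untreated clones differed as given above.

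In bulk colonies fewer cells of a type and less RNA per cell cannot be told apart. The summed CPM of the 8 presomitic mesoderm markers was 865 without and 807 with dox in clone 12, and 1239 and 939 in clone 20. The summed level of the pluripotency list was 1370 and 1386, then 1468 and 1288, and that of the endoderm list 685 and 729, then 969 and 720. Their part in the lower identity genes was not tested.

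Targets of YAP and SRF, factors that follow cell shape and tension, held 3 that fell among 19 and none that rose, with a median of -0.21. Ccn2, the gene with the largest fall of all 13, went from 6.85 to 3.15 CPM and from 7.91 to 2.60 CPM (-1.36 ± 0.22, adjusted p = 0.0120). Its relative Ccn1, like Ccn2 a secreted matrix protein, went from 22.7 to 13.9 and from 34.8 to 12.6 CPM (-1.09 ± 0.20, adjusted p = 0.0237). Amotl2, a YAP-binding angiomotin, went from 71.3 to 49.2 and from 80.7 to 40.3 CPM (-0.77 ± 0.16, adjusted p = 0.0373; 0.0716 without the replicate block). All 3 also belong to the genes that were lower in both Clock/Bmal1DN clones, where the median of the list was -0.18.

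The other genes that fell include transcription factors of the early embryo. Zfp503 went from 9.08 to 3.97 CPM and from 10.9 to 5.09 CPM (-1.15 ± 0.20), and Foxb1, a forkhead factor, from 8.13 to 4.26 and from 14.0 to 7.45 CPM (-0.92 ± 0.19). Klf6, a zinc-finger factor, went from 54.5 to 38.2 and from 68.3 to 37.8 CPM (-0.68 ± 0.14). Pcdh18, a protocadherin, went from 50.1 to 33.3 and from 60.2 to 32.9 CPM (-0.73 ± 0.14), and Klhl6, a ubiquitin ligase adaptor, from 13.9 to 7.67 and from 15.5 to 7.77 CPM (-0.93 ± 0.17). Their adjusted p-values ran from 0.0166 for Zfp503 to 0.0465 for Klf6. Foxb1 and Klf6 did not pass without the replicate block (adjusted p = 0.682 and 0.067).

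Phlda1 and Cited2 just missed the threshold. Phlda1 was 5.39 and 2.62 CPM in clone 12 and 4.92 and 2.32 in clone 20 (-1.06 ± 0.23, adjusted p = 0.0506). Cited2, a transcriptional coactivator, was 17.1 and 10.9 CPM and then 21.8 and 12.6 (-0.72 ± 0.16, adjusted p = 0.0584). In both genes the dox libraries were below the untreated ones in each clone.

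**Figure D3:**
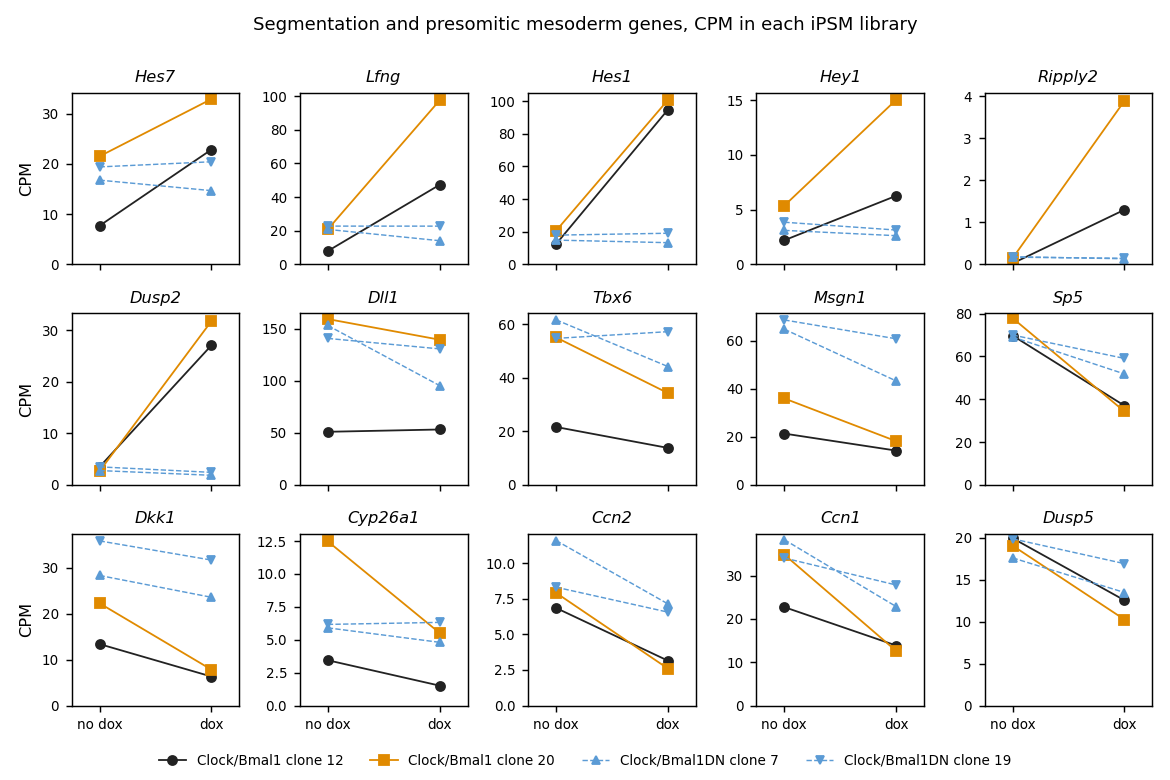
CPM of 15 segmentation, presomitic mesoderm and related genes in 8 iPSM libraries, 1 panel per gene with its own y axis from 0; each line joins the untreated and the dox library of 1 clone, Clock/Bmal1 clones solid and Clock/Bmal1DN clones dashed. Hes7, Lfng, Hes1, Hey1, Ripply2 and Dusp2 rose in both Clock/Bmal1 clones, Dll1 and Tbx6 did not pass, and the other 7 fell.

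No Hox gene passed, yet the list leaned one way. Of 26 tested Hox genes, 21 were lower in both clones (80.8%, against 20.2% of all tested genes) and none was higher in both, with a median log2 fold change of -0.37. The lowest p belonged to Hoxb2, at 27.9 and 21.9 CPM in clone 12 and 57.3 and 28.8 in clone 20 (-0.67 ± 0.17, adjusted p = 0.124). It passed with the length trend taken out (adjusted p = 0.0190). In the Clock/Bmal1DN clones the median of the list was 0.10.

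Genes of low-oxygen response and glucose use rose in part: of 26, 5 passed as higher and none passed as lower, with a median of 0.06. Ndrg1, a stress-responsive gene induced by low oxygen, rose from 5.94 to 120 CPM in clone 12 and from 4.18 to 168 CPM in clone 20, a 28.2-fold rise (4.82 ± 0.24, adjusted p = 8.19e-06). Pfkfb3, which raises the main activator of glycolysis, rose from 12.7 to 36.0 and from 9.87 to 55.1 CPM (1.99 ± 0.23). Hk2, a hexokinase, rose from 100.4 to 179 and from 128 to 318 CPM (1.08 ± 0.16; adjusted p = 0.00517, and 0.069 without the replicate block). The 2 others were Bhlhe40 and Bnip3, and the glycolytic and hypoxic members left did not pass.

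Other lists held fewer. In the list of PAR bZIP, NAD and PPAR outputs, 4 of 19 rose: Dbp, Tef, Hlf and Pparg, the adipogenic nuclear receptor, which went from 0.162 to 2.93 CPM and from 0.0717 to 6.43 CPM (5.14 ± 0.50). Of 23 integrated stress response genes, Stc2, a secreted glycoprotein, rose from 10.1 to 34.4 and from 17.3 to 53.4 CPM (1.70 ± 0.16). Vldlr, a lipoprotein receptor (1.16 ± 0.14), and Cebpb (1.26 ± 0.26) were the other 2. Without the replicate block Vldlr and Cebpb did not pass (adjusted p = 0.117 and 0.223).

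Of 32 cell cycle genes, Cdkn1c, a cyclin-dependent kinase inhibitor, rose from 23.6 to 43.5 and from 21.8 to 39.1 CPM (0.86 ± 0.14), and Ccne2, a cyclin, from 44.4 to 73.1 and from 60.4 to 107 CPM (0.77 ± 0.16; adjusted p without the replicate block 0.25). In the Myc and Max list of 18, Mnt, a Max-binding repressor, rose from 10.6 to 18.6 and from 7.19 to 21.6 CPM (1.20 ± 0.22). In the BMP and Id list of 25, Id2, an inhibitor of bHLH factors, rose from 3.65 to 8.64 and from 5.76 to 13.4 CPM (1.23 ± 0.21; adjusted p without the replicate block 0.17). Cyp26b1, a relative of Cyp26a1, rose in the retinoic acid list of 18 to 1.49 and 1.66 CPM from 0.243 and 0 (3.76 ± 0.79; adjusted p without the replicate block 0.0957), so the 2 relatives moved in opposite directions.

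A few genes of somites, muscle and other mesoderm rose. Of 18 somite and myogenic genes, Ripply2, Scx and Myod1 rose, with a median over the list of -0.04. Scx, a bHLH factor of tendon progenitors, went from 0.182 to 5.24 CPM and from 0.454 to 9.03 CPM (4.52 ± 0.33). Myod1, the muscle-determining bHLH factor, had no untreated count and reached 0.241 and 0.724 CPM, at least 15.1-fold higher, but did not pass without the replicate block (adjusted p = 0.152) or in DESeq2 (adjusted p = 1).

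Of 15 lateral, intermediate and cardiac mesoderm genes, Mef2c, a MADS-box factor, rose from 2.96 to 10.8 and from 2.87 to 17.5 CPM (2.23 ± 0.25). Gata5 had 3 untreated counts and reached 0.698 and 1.98 CPM, a count ratio of 41.9 (14.0 to 206), and did not pass in DESeq2 (adjusted p = 0.66). In the pluripotency list of 26, Pou3f1, a POU factor of the primed state, rose from 2.72 to 12.3 and from 3.54 to 15.7 CPM (2.16 ± 0.24). These 3 genes were low before dox in both clones.

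No gene passed in the neural (14 tested), endothelial and blood (10), endoderm (10), p53 target (20), unfolded protein (14), cholesterol synthesis (19) or mitochondrially encoded (10) lists. Their genes of lowest p were Sox1 (adjusted p = 0.0865), Flt1 (0.343), Cxcr4 (0.140), Bbc3 (0.0786), Herpud1 (0.0667), Stard4 (0.742) and mt-Co3 (1). Of these, Bbc3 and Herpud1 passed with the length trend taken out.

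**Figure D4:**
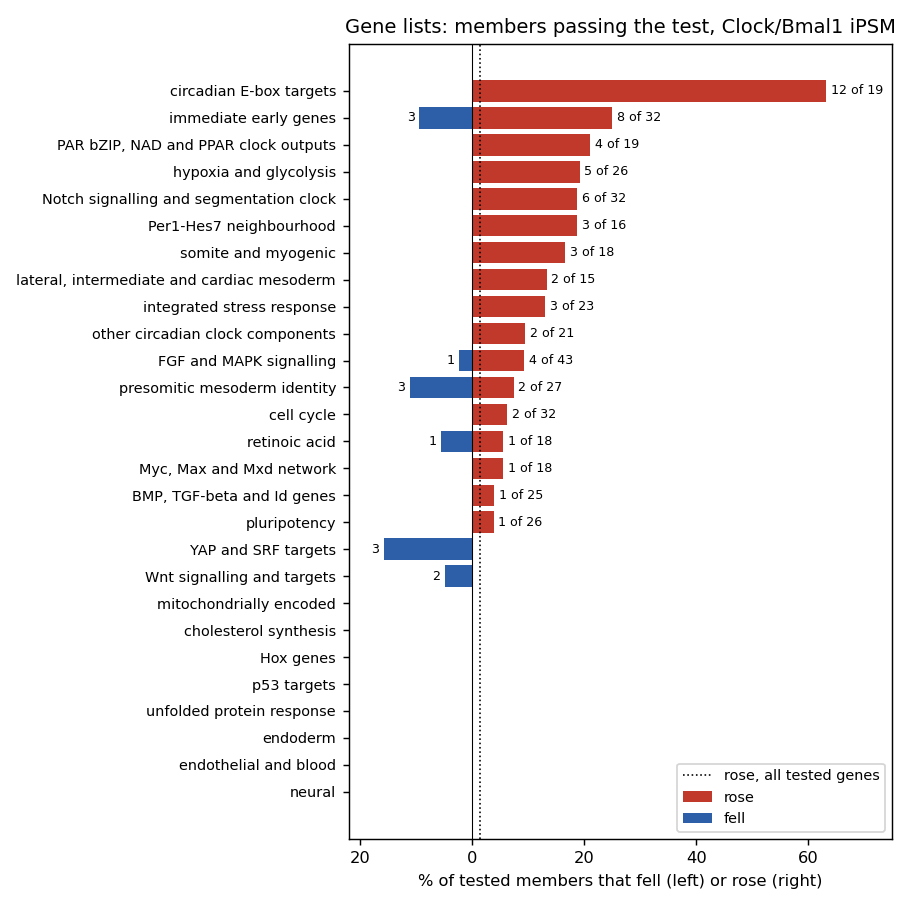
Share of the tested members of 27 gene lists that fell (blue, left) or rose (red, right) in the Clock/Bmal1 iPSM clones, with the numbers of genes beside the bars; the dotted line is the 1.5% of all tested genes that rose. The circadian E-box list has the longest bar, 12 of 19, and 8 lists have none.

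The Clock/Bmal1DN clones, with the altered Bmal1, got the same dox treatment. There 1 gene passed by edgeR, Clock itself, which rose from 112 to 1015 CPM in clone 7 and from 107 to 1054 CPM in clone 19. None fell, and 166 had an unadjusted p under 0.05. This test used the spread pooled with the Clock/Bmal1 pairs. Among genes of at least 1 CPM untreated, log2 changes had SDs of 0.257 and 0.174 in clones 7 and 19. In Clock/Bmal1 clones 12 and 20 they were 0.368 and 0.537. The single call therefore does not show that other genes of the Clock/Bmal1DN clones did not respond. Arntl went from 41.9 to 881 CPM in clone 7 and from 65.8 to 152 CPM in clone 19, so the clones differed in Arntl and it did not pass (2.80, adjusted p = 1). With dox both RNAs were lower here than in Clock/Bmal1 clones 12 and 20. Those reached 1748 and 2459 CPM of Clock, and 3212 and 4682 CPM of Arntl. The part of these levels in the differences between the genotypes was not tested. By a simple rule of at least doubling in both clones, 399 genes (1.9%) qualified in the Clock/Bmal1 clones and 30 (0.143%) in the Clock/Bmal1DN clones. At least halved were 74 (0.352%) and 31 (0.148%).

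The difference between the 2 dox effects was tested gene by gene. It passed for 104 genes (0.495% of those tested), all higher in the Clock/Bmal1 clones and all among the 316. Over the 316 the median log2 fold change in the Clock/Bmal1DN clones was -0.02. Per1, Per2, Cry1, Nr1d1, Nr1d2, Dbp, Tef, Hlf, Bhlhe40, Bhlhe41, Ciart, Lfng, Hes1, Hey1 and Ripply2 were among the 104, whereas Hes7 was not (adjusted p of the difference 0.310).

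None of the 13 falls differed from the Clock/Bmal1DN clones by this test. Neither did 212 of the 316 rises, so not passing does not show equal effects. In the Clock/Bmal1DN clones the median log2 fold change of the 13 was -0.25, against -0.001 over all tested genes. Of the 13, 10 were lower in both of these clones, and the share of all tested genes was not counted. Ccn2 and Ccn1 each had a log2 fold change of -0.52 there, Sp5 of -0.33, Dkk1 of -0.22 and Pcdh18 of 0.06. In the control line, with 1 library a condition and no test, the median log2 ratio of the 13 was 0.19, and that of the 316 was -0.10.

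**Figure D5:**
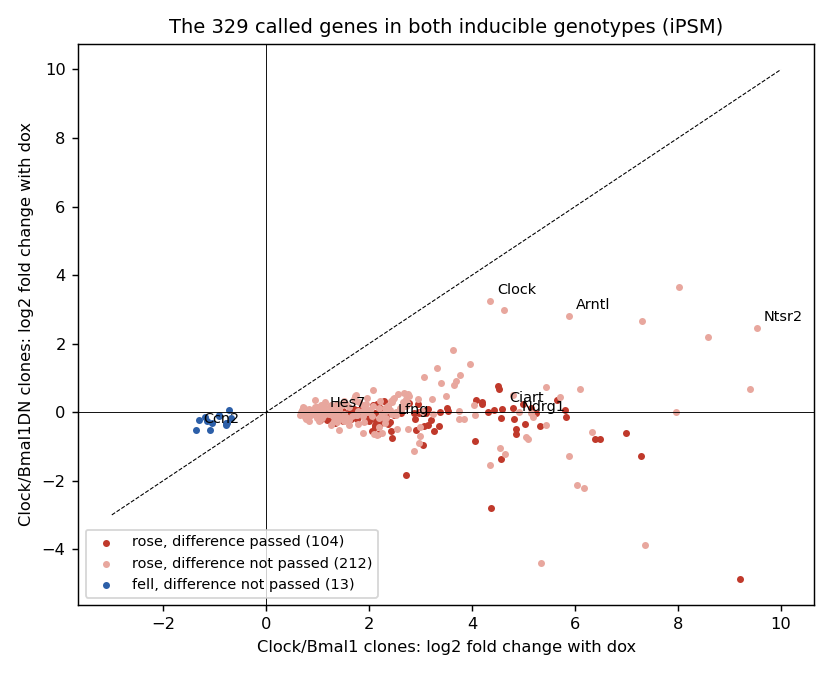
Fitted log2 fold change with dox in the Clock/Bmal1DN clones (y axis) against that in the Clock/Bmal1 clones (x axis) for the 329 genes that passed in the latter; dark red points rose and differed between the genotypes (104), light red points rose without such a difference (212), blue points fell (13), and the dashed line marks equal change. Most points lie along 0 on the y axis, Clock and Arntl lie well above it, and values beyond 6 on the x axis rest on few untreated counts.

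Embryonic stem cells with the same pair of genes were treated at another dose and for longer, 500 ng/mL for 6 hours, and came from another parental line, KY1.1, so values are set side by side. Of 20508 genes tested there, 151 rose (0.736%) and 6 fell (0.0293%). A total of 102 genes rose in both, 32.3% of the iPSM genes and 67.5% of the stem cell genes. These shares are of all genes that rose, some of them not tested in the other cell type. Of the iPSM genes that rose, 302 were tested in stem cells, and 289 of these were higher there. Their median log2 fold change in stem cells was 1.58, against 0.038 over all genes tested in both. Of the stem cell genes that rose, 147 were tested in iPSM. A gene outside the overlap may therefore still have been higher in stem cells. The log2 fold change of Per2 was 2.88 in iPSM and 4.38 in stem cells, that of Lfng 2.41 and 2.85, that of Hes1 2.62 and 1.35 (adjusted p in stem cells 0.164), and that of Junb 2.13 and 1.08 (0.109). Of the 13 genes that fell, 11 were tested in stem cells: 5 were lower and 6 higher there, and none passed.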

How the data were processed

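The authors deposited, per cell type, 1 table of expected counts (estimated counts in steps of 0.5, reads over whole gene bodies, introns included) and of RPKM, the same counts scaled to kilobases of gene body and to library size per the file headers. Per the submitters' processing notes, bcl2fastq, STAR 2.7.2a, HOMER and mm10 were used. Per the labels' protocols, libraries were stranded total RNA, so unspliced RNA is counted too. Counts were rounded to whole numbers. The 8 iPSM libraries of the 2 inducible genotypes were fitted with edgeR 4.0.16 (R 4.3.3): filterByExpr, TMM, glmQLFit and glmQLFTest, with the clone as block and 1 dox term per genotype, leaving 2 residual degrees of freedom. Tests were two-sided and an adjusted p (Benjamini-Hochberg over all tested genes) under 0.05 was called. The control line, with 1 library per condition, was left out of the fit. The pairing comes from the labels (the same clone with and without dox): over genes, the difference between clones 12 and 20 correlated at 0.243 between untreated and dox libraries, and that between clones 7 and 19 at 0.141.

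Log2 ratios per clone used a prior count of 2. Where the untreated group had 0 counts, the fold is a lower bound set by a floor of 3 counts for that group; where it had 1 to 3, the count ratio and its exact 95% interval are given. The reads carry no molecular identifiers. The counting precision is that of 38.2 to 47.8 M counts a library, and the spread in the fit is that of 2 clones per genotype. Members and lists were chosen with earlier results of these data known. Named genes are 21 clock and segmentation genes, the 15 largest rises and falls of at least 1 CPM with settled symbols, and up to 4 called members of each of 27 lists; a list with none gives its gene of lowest p. Called list members beyond these, marker levels and Hes6 were named after their values were seen. The fit was tested on simulated data, drawn without differences between clones and without length trends. That test therefore does not show how the fit handles either of these. Alternatives included DESeq2 1.42.0 and limma 3.58.1. Promoters were matched by symbol within 500 bases of the table's gene start. The symbols Cyr61 and Ctgf were matched as Ccn1 and Ccn2.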

Additional observations from a re-analysis of the deposited data

Results flagged for a closer look

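The dox effect differed between the Clock/Bmal1 and the Clock/Bmal1DN clones for 104 genes (edgeR's quasi-likelihood test, adjusted p under 0.05), and 34 of the 85 named genes were among them, with adjusted p-values of the difference from 0.000278 to 0.0363. Values below are the log2 fold change in the Clock/Bmal1 clones minus that in the Clock/Bmal1DN clones. Among circadian genes it was 5.73 for Hlf, 5.27 for Bhlhe41, 4.48 for Ciart, 4.38 for Nr1d1, 3.47 for Dbp, 3.45 for Bhlhe40, 3.08 for Per2, 2.88 for Per1, 1.48 for Tef, 1.42 for Cry1 and 1.29 for Nr1d2. Among segmentation and mesoderm genes it was 5.36 for Ripply2, 3.86 for Scx, 3.81 for Dusp2, 2.69 for Lfng, 2.65 for Hes1, 2.55 for Mef2c and 1.77 for Hey1.

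Among early-response, metabolic and other listed genes it was 5.73 for Nr4a3, 5.03 for Pparg, 5.01 for Ndrg1, 2.97 for Gadd45b, 2.79 for Pou3f1, 2.40 for Junb, 2.25 for Pfkfb3, 1.97 for Klf10, 1.61 for Stc2 and 1.23 for Vldlr. Among the genes with the largest rises it was 8.57 for Prok2, 7.62 for Hrh3, 7.17 for Onecut1, 5.98 for Nmu and 5.31 for Kcnj5. For Nkx1-1, with no untreated count in either Clock/Bmal1 clone, the fitted difference was 14.08, a value that depends on the prior count and is no measure of size.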

How the results depend on the processing

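The 316 rises and 13 falls depend on the clones more than on the scaling: RLE factors gave 307 and 13, upper-quartile factors 342 and 16, limma-voom 342 and 13, and the fit without Clock and Arntl 314 and 13, with medians over all genes within 0.04 of 0. Without the replicate block 239 genes rose, all among the 316, and 6 fell; 18 of the 70 named genes called lost their call, as given beside them. DESeq2 lost Nkx1-1, Ddn, Gata5 and Myod1, limma-voom lost Msgn1 and Cyp26b1, and RLE factors lost Cyp26b1 and Myod1. All 10 libraries gave 22 falls, DESeq2 24 and the removal of the length trend 36. With no filter on low counts 628 rose and 61 fell. With a mean of at least 1 CPM, 15323 genes were tested, of which 202 rose and 7 fell. Hes7, Klf6, Amotl2, Dusp5, Msgn1, Foxb1, Ccn1, Dusp4, Ccne2 and Cebpb were still tested in that setting but did not pass. The fit to the 4 Clock/Bmal1 libraries alone called 448 and 12, 303 and 8 of them shared, without Klf6, Pcdh18, Dusp5, Msgn1, Foxb1 and Dusp4.

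Leaving out 1 clone or library gave 73 to 2727 rises and 0 to 1598 falls. Without clone 12, 2727 rose and 1598 fell, and without clone 20, 506 and 863; there the lone pair is assumed to vary like the Clock/Bmal1DN pairs, whose log2 ratios had an SD over genes of 0.257 and 0.174, against 0.368 in clone 12 and 0.537 in clone 20. All 316 rises were kept without clone 12 and 306 without clone 20, and all 13 falls in both. Without Clock/Bmal1DN clone 7 or 19, 11 and 12 fell, 7 of the 13 in each; Foxb1, Msgn1, Dusp5, Amotl2, Pcdh18 and Klf6 did not pass in either. Without the replicate block, leaving out the dox library of clone 20 gave 73 rises and 0 falls by edgeR (406 lower at an unadjusted p under 0.05), and leaving out that of clone 12 gave 267 and 1; without the untreated library of clone 20 there were 189 and 7, and without that of clone 12, 476 and 70. Over these settings the log2 fold change of Cyp26a1 ran from -2.39 to 0.034, the latter without the untreated library of clone 20. That setting compares untreated clone 12 (3.45 CPM) with the dox libraries of both clones (1.52 and 5.51 CPM). Within clones 12 and 20 the log2 changes were -1.16 and -1.17. The cause of the different levels of the 2 clones was not tested.

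Genes doubled in both clones numbered 809 at 1.5-fold and 196 with a mean of at least 1 CPM, against 399; genes halved numbered 293 at 1.5-fold, 32 with a prior count of 5 and 11 with a mean of at least 1 CPM, against 74. The difference between the dox effects of the 2 genotypes passed for 52 genes without the replicate block and 168 in DESeq2, against 104. The overlap with stem cells was 72 genes without the replicate block, against 102. Genes under about 1 CPM rest on few reads, so their changes are the least certain.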
